A study of Mus musculus with 8 samples.

Results

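Cd34 and 9 other genes that mark fibroblast lineages were examined in immortalised skin fibroblasts that carry floxed Mir210 alleles and are named KO, and in wild-type fibroblasts (WT). The 10 genes are Cd34, Crabp1, Tbx3, Pdgfra, Ly6a, Thy1, Twist1, Twist2, Prrx1 and En1. They were chosen by their names, and the set was picked because Cd34, Crabp1 and Tbx3 had been seen to be higher in KO, so every KO against WT value below is a description without a test. Of the 10, 9 had a row among the 17091 features of the table, and all 9 reached the minimum level for testing. En1, a homeobox gene that marks a dorsal dermal lineage, was not analysed here. In the GRCm38 annotation Cd34 lies at chr1:194938819-194961279 (plus strand), Crabp1 at chr9:54764748-54773110 (plus strand) and Tbx3 at chr5:119670669-119684724 (plus strand), and the deposited values are per gene, over no stated exons.

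RNA was sequenced from fibroblasts of mouse skin, adapted to continuous growth in culture, in 8 libraries. The KO groups came from C57BL/6 mice described as mir210lox/lox and were kept for 24 hours at 1% oxygen (hypoxia, 2 libraries) or 21% oxygen (normoxia, 2 libraries). The WT groups came from mice described as C57BL/6 alone and were kept at 1% or 21% oxygen for the same time, again with 2 libraries each. A lox site lets the Cre recombinase remove the DNA between a pair of such sites. The labels name no Cre, no promoter that would drive it, and neither the number of mice nor the number of cell lines behind each genotype. A difference between the genotypes and a difference between the cell lines derived from them cannot be told apart. The 2 libraries of a group are numbered 1 and 2, and the labels do not say whether they are separate cultures.

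Fibroblasts of the skin arise from several embryonic sources and keep a record of origin and depth in their surface proteins and transcription factors. Cd34 is a sialomucin of the cell surface, known from blood progenitors and endothelium and also carried by fibroblasts of the dermis. Crabp1 holds retinoic acid in the cytosol and marks dermal papilla and upper dermal fibroblasts, and Tbx3 is a T-box repressor that patterns limb and mammary mesenchyme. Pdgfra is the receptor tyrosine kinase used to recognise fibroblasts at large, while Ly6a (Sca-1) and Thy1 (CD90) are lipid-anchored surface proteins used to sort them. Twist1 and Twist2 are paired basic helix-loop-helix factors of mesenchyme, and Prrx1 is a homeobox factor of limb and dermal mesenchyme.

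The microRNA that the floxed allele concerns is shown first, because the genes below were read for matches to its seed. Mature miR-210-3p lies at chr7:141221407-141221428 on the minus strand (GRCm38.p6, RefSeq), and its seed, bases 2 to 8, is in capitals.
mmu-miR-210-3p: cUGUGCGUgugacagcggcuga

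The DNA letters that pair with this seed, ACGCACA, were searched on the transcript strand of the longest annotated 3′ UTR of each gene. The match was found in 0 of the 9 genes, whose 3′ UTRs ran from 234 bases (Crabp1) to 4891 bases (Prrx1). Among 10778 tested genes with an annotated 3′ UTR, 3.73% held it. Mir210 itself was at the lowest deposited value, 1, in each of the 8 libraries, and so does not check the genotype labels.

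The promoters of the pair of KO-high genes that the RefSeq table holds, each 300 bases that end shortly after the transcription start, are given next, since the design tests low oxygen and the core of the hypoxia response element can be read in them. The motif was ACGTG or GCGTG, read on either strand. Cd34 (chr1:194938571-194938870, plus strand, GRCm38.p6) had 0 matches and 7 CpG pairs, and Crabp1 (chr9:54764498-54764797, plus strand, GRCm38.p6) had 2 matches and 17 CpG pairs.
Cd34: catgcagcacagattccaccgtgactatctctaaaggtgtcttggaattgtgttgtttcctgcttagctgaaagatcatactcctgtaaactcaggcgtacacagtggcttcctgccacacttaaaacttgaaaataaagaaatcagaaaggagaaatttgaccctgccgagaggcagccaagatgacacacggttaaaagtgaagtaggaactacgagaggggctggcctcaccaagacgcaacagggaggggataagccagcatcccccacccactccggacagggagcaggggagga
Crabp1: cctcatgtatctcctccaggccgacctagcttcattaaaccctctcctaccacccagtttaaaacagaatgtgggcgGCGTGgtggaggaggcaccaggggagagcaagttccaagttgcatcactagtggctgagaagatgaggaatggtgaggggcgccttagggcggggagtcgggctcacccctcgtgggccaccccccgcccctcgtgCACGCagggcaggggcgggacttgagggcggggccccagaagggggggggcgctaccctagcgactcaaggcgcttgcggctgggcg

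Capitals mark the core, and Cd34 has none. Of the 6 analysed genes with a promoter in that table (Cd34, Crabp1, Pdgfra, Twist1, Twist2 and Prrx1), Crabp1 and Twist1 held the motif, with 2 matches and 1 match, while 64.5% of the promoters of tested features held it. Tested promoters had a median of 21 CpG pairs, against 27 in Twist1, 25 in Twist2, 6 in Prrx1 and 5 in Pdgfra. A match is a string of letters and not a bound site.

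All levels are the authors' normalised read counts. Estimated reads assigned to genes ran from 6.26 M to 11.76 M per library. The fit to the spacing of low values behind these estimates had r from 0.586 (WT hypoxia replicate 2) to 0.946 (KO hypoxia replicate 1). Of the markers that define fibroblasts, Col1a1 (4983 to 8590), Vim (22681 to 35333) and Pdgfrb (548 to 882) were high in every library, and 3 others were low, namely Dcn (12 to 93), Lum (1 to 36) and Fap (4 to 40). Markers that define other skin cells were mostly near the lowest deposited value, 1. Summed over the 12 endothelial markers in the table the level was 90 to 112 in KO and 70 to 148 in WT, and over 8 blood and leukocyte markers 24 to 34 in KO and 23 to 43 in WT. Pecam1, which defines endothelium, was at 1 in every KO library and at 1 or 2 in WT libraries, and Ptprc, the pan-leukocyte antigen, was at 1 to 6 in KO and 1 to 3 in WT. Xist was at 1 to 7 in KO and 2 to 8 in WT, and Ddx3y, a Y-linked gene, at 791 to 1009 in KO and 630 to 1569 in WT. Keratinocyte markers summed to 872 to 1059 in KO and 747 to 1074 in WT (13 genes, Krt5 and Krt1 at 1 throughout), and pericyte markers to 1792 to 2615 in KO and 1355 to 2179 in WT (9 genes, Kcnj8, Abcc9 and Anpep at 1 throughout). The sums were 193 to 238 in KO and 189 to 568 in WT for 4 adipocyte markers, 99 to 108 in KO and 90 to 154 in WT for 6 Schwann cell and melanocyte markers, and 411 to 656 in KO and 581 to 982 in WT for 5 muscle markers. Of the 28 of these markers that were tested, 0 had every KO library below every WT library, against 1.7% of tested features, and 3 had every KO library above every WT library, against 1.95%: Cspg4, a pericyte proteoglycan (1496 in KO and 942 in WT), Cdh1, an epithelial cadherin (28.5 in KO and 10.8 in WT), and the Y-linked Kdm5d (308 in KO and 206 in WT). Their part in the KO against WT values below was not tested. Perp carried most of the keratinocyte sum, at 783 to 959 in KO and 685 to 1003 in WT. Most of the muscle sum was Acta1 (401 to 648 in KO and 574 to 977 in WT). Pparg made up most of the adipocyte sum (174 to 211 in KO and 168 to 437 in WT), and Cspg4 with Mcam most of the pericyte sum. KO normoxia replicate 1 and WT hypoxia replicate 2 had the lowest slopes of level on transcript length, -0.14 and -0.12 log2 units per doubling, against -0.08 to 0.14 elsewhere, so short transcripts were relatively high in both.

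**Figure D1:**
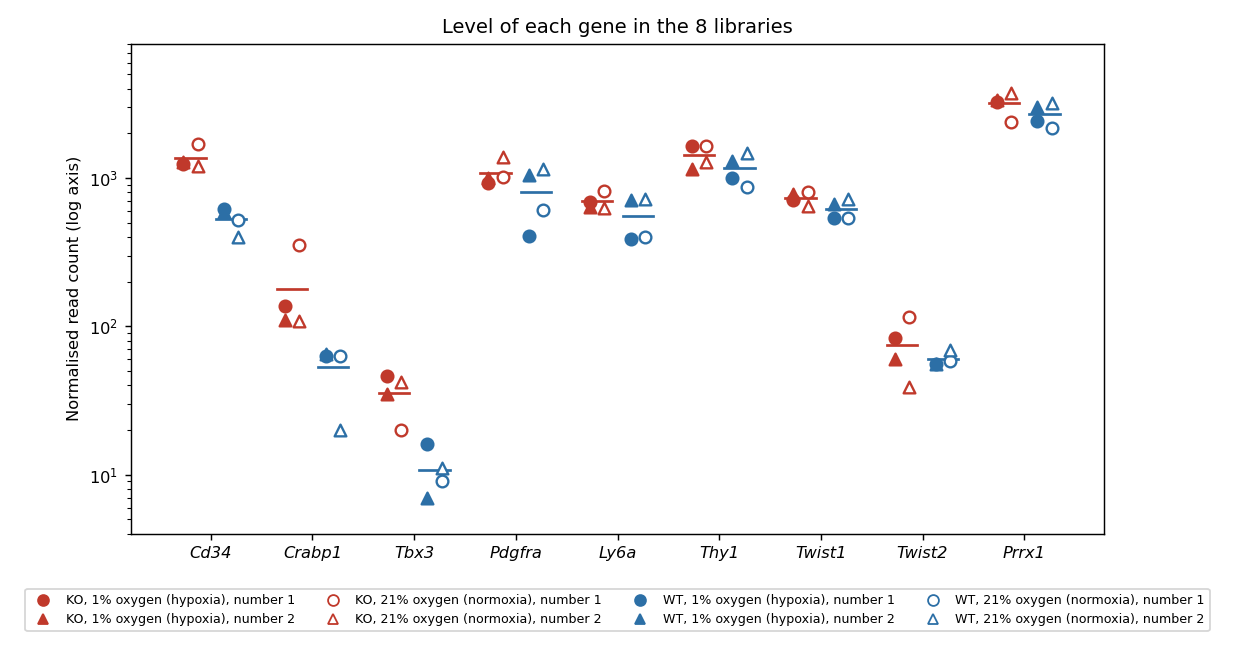
Normalised read count (log axis) of the 9 analysed genes in the 8 libraries. KO libraries are red and stand left of WT libraries (blue), filled symbols are 1% oxygen, circles are number 1, triangles number 2, and lines are means of 4 libraries. The KO and WT symbols of Cd34, Crabp1 and Tbx3 occupy separate ranges, while those of the other 6 genes overlap.

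Cd34 read 1247 and 1274 in KO hypoxia, 1704 and 1207 in KO normoxia, 619 and 588 in WT hypoxia, and 519 and 399 in WT normoxia. Every KO library lay above every WT library, the lowest KO value being 1207 and the highest WT value 619. Over both oxygen levels Cd34 averaged 1358 ± 232 in KO and 531 ± 97.6 in WT (SD, n = 4 each), a ratio of 2.56. On the log2(value + 1) scale the difference, KO minus WT, was 1.06 in hypoxia, 1.65 in normoxia and 1.36 over both. It ran from 1.23 to 1.48 as each library was left out, and was 1.22 without the pair of libraries whose length slopes were lowest. Among tested features, 0.347% had a difference at least as large, but Cd34 was picked on this contrast and nothing is read from this share.

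The exons of Cd34 share 148 bases with Gm16897, an annotated gene on the opposite strand, and the use of strand in the counting is not given in the sources used here. Gm16897 stayed at 1 to 3 in KO and 1 to 5 in WT. The part that reads from the shared bases have in the level of Cd34 was not tested.

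Crabp1 read 138 and 111 in KO hypoxia, 355 and 108 in KO normoxia, 63 and 65 in WT hypoxia, and 63 and 20 in WT normoxia. The groups did not overlap, with 108 the lowest KO value and 65 the highest WT value, yet both genotypes varied widely in normoxia. It averaged 178 ± 119 in KO and 52.8 ± 21.9 in WT (SD, n = 4 each), a ratio of 3.37. The log2 difference was 0.94 in hypoxia, 2.43 in normoxia and 1.68 over both. Without KO normoxia replicate 1, the library with the highest value, it was 1.26, and without KO normoxia replicate 2 it was 2.11. Crabp1 has 0.802 kb of exon and short transcripts were relatively high in KO normoxia replicate 1. With each library's trend on transcript length removed the difference was 1.72, and without the pair of low-slope libraries it was 1.27.

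Tbx3 was the lowest of the 9, with 46 and 35 in KO hypoxia, 20 and 42 in KO normoxia, 16 and 7 in WT hypoxia, and 9 and 11 in WT normoxia. The lowest KO value, 20, stood just above the highest WT value, 16, and these 2 values rest on an estimated 15 reads each, so that gap is within counting error. Tbx3 averaged 35.8 ± 11.4 in KO and 10.8 ± 3.86 in WT (SD, n = 4 each), a ratio of 3.33. The log2 difference was 1.82 in hypoxia, 1.46 in normoxia and 1.64 over both, and 1.12 with a pseudocount of 10. Without the pair of low-slope libraries it was 1.62. Its exons share 115 bases with the opposite-strand gene Tbx3os1, which was not analysed here.

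These 3 were the only analysed genes whose 4 KO libraries all lay above all 4 WT libraries (3 of 9), against 1.95% of the 12107 tested features. The opposite order was seen in 0 of 9, against 1.7% of tested features. Since the set was picked on this contrast, nothing is read from either count. In RNA from a whole culture, more cells that carry a transcript and more transcript per cell cannot be told apart.

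The other 6 genes overlapped between KO and WT. Pdgfra read 923 and 998 in KO hypoxia, 1019 and 1385 in KO normoxia, 405 and 1039 in WT hypoxia, and 608 and 1156 in WT normoxia. Its mean was 1081 ± 207 in KO and 802 ± 354 in WT (SD, n = 4 each), and the WT libraries split by number, those numbered 1 at 405 and 608 and those numbered 2 at 1039 and 1156. Pdgfra shares 456 exon bases with an opposite-strand gene, Gm42802, that was not analysed here.

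Ly6a read 687 and 640 in KO hypoxia, 819 and 631 in KO normoxia, 390 and 707 in WT hypoxia, and 401 and 724 in WT normoxia. Its mean was 694 ± 86.7 in KO and 556 ± 185 in WT, with WT replicates 1 far below every KO library and WT replicates 2 within the KO range. Near-identical Ly6 genes lie close by and may share reads with it, so its level is uncertain to that extent. Thy1 read 1646 and 1154 in KO hypoxia, 1652 and 1290 in KO normoxia, 1006 and 1300 in WT hypoxia, and 871 and 1470 in WT normoxia. Its mean was 1436 ± 253 in KO and 1162 ± 273 in WT (SD, n = 4 each), and the order of the numbered libraries was opposite in KO and WT.

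Twist1 read 712 and 777 in KO hypoxia, 800 and 648 in KO normoxia, 534 and 670 in WT hypoxia, and 534 and 724 in WT normoxia. It averaged 734 ± 68.5 in KO and 616 ± 96.7 in WT (SD, n = 4 each). Its paralog Twist2 was lower, also per kilobase of exon, with 84 and 60 in KO hypoxia, 116 and 39 in KO normoxia, 56 and 56 in WT hypoxia, and 58 and 69 in WT normoxia. The KO values of Twist2 enclosed the WT values, and its log2 difference of 0.21 turned to -0.17 without KO normoxia replicate 1. Twist2 exons share 1477 bases with the opposite-strand gene Gm29100, which was not analysed here.

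Prrx1 was the highest of the 9 in read count, with 3269 and 3344 in KO hypoxia, 2384 and 3735 in KO normoxia, 2435 and 2991 in WT hypoxia, and 2158 and 3210 in WT normoxia. It averaged 3183 ± 571 in KO and 2698 ± 486 in WT (SD, n = 4 each). With KO normoxia replicate 1 left out, its 3 remaining KO libraries lay above all 4 WT libraries, and the count of non-overlapping genes became 4. The log2 differences over both oxygen levels were 0.53 for Pdgfra, 0.38 for Ly6a, 0.32 for Thy1, 0.26 for Twist1, 0.24 for Prrx1 and 0.21 for Twist2. As each library was left out, the difference ran from 0.19 (without WT hypoxia replicate 1) to 0.87 (without WT hypoxia replicate 2) for Pdgfra, 0.16 to 0.59 for Ly6a, 0.13 to 0.51 for Thy1, 0.15 to 0.37 for Twist1 and 0.08 to 0.40 for Prrx1. The 9 differences had a median of 0.38, and all tested features a median of -0.01, but the set was picked on this contrast and nothing is read from the 2 medians.

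The sign of several of these differences depended on which numbered libraries were compared. The labels do not pair a KO number with a WT number, and same-numbered deviations correlated at only -0.11 to 0.11 between the genotypes. Matching by number is therefore arbitrary across genotypes, and the values below only describe these libraries. Among libraries numbered 1, both KO libraries lay above both WT libraries for 8 of 9 genes, against 13.7% of tested features, Prrx1 being the exception. Among libraries numbered 2 this held for 4 of 9 (Cd34, Crabp1, Tbx3 and Prrx1), against 24.7% of tested features. Both KO libraries numbered 2 lay below both WT libraries numbered 2 for Ly6a and Thy1 (2 of 9), against 25.1%.

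Cd34 differed by 1.36 log2 units within number 1 and by 1.35 within number 2. Crabp1 differed by 1.80 and 1.57, and Tbx3 by 1.27 and 2.01, within numbers 1 and 2. Since all KO libraries of these 3 genes lay above all their WT libraries, they could only be higher within either number, and they are counted in both tallies of KO above WT. Ly6a differed by 0.92 within number 1 and by -0.17 within number 2, and Thy1 by 0.82 and -0.18. Pdgfra (0.97 and 0.10) and Twist1 (0.50 and 0.03) were higher in KO within number 1 and near 0 within number 2. Twist2 changed sign between the numbers (0.78 and -0.35).

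**Figure D2:**
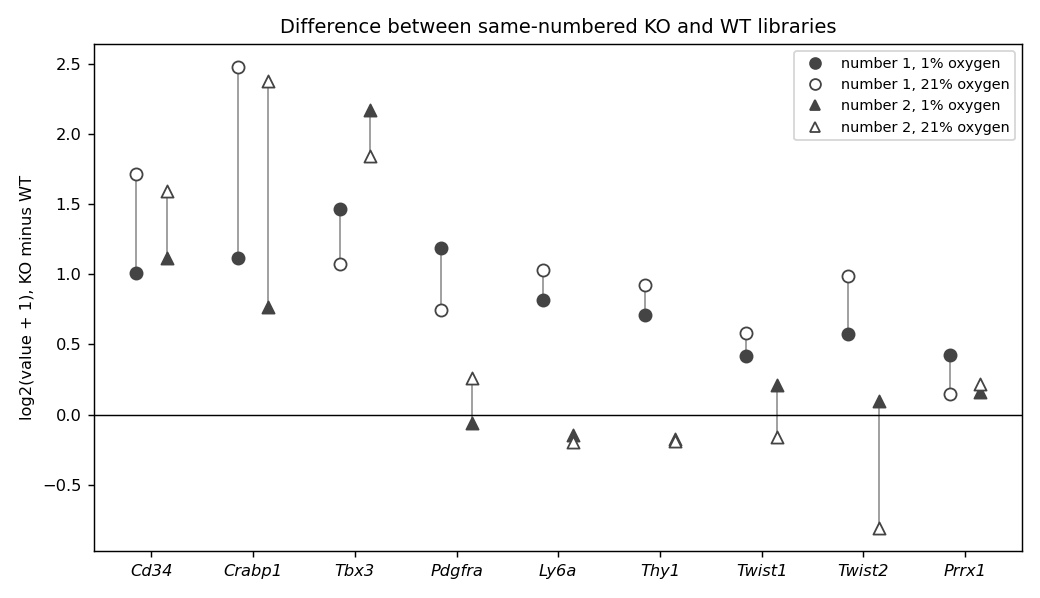
Difference in log2(value + 1) between the KO and the WT library of the same number and oxygen level, for each gene. The labels do not pair the numbers across genotypes. Circles are number 1, triangles number 2, filled symbols 1% oxygen. Cd34, Crabp1 and Tbx3 lie above 0 in all 4 comparisons, and Ly6a and Thy1 lie above 0 for number 1 and below 0 for number 2.

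Within WT, both libraries numbered 1 lay below both numbered 2 for 5 of 9 genes (Pdgfra, Ly6a, Thy1, Twist1 and Prrx1), against 21.4% of tested features. The log2 difference, number 1 minus number 2, was -1.14 for Pdgfra, -0.85 for Ly6a, -0.56 for Thy1, -0.43 for Prrx1 and -0.38 for Twist1. For Pdgfra, Ly6a, Thy1, Twist1 and Prrx1 this gap between numbered WT libraries was larger than the mean gap between KO and WT. Within KO, 4 of 9 genes (Crabp1, Ly6a, Thy1 and Twist2) were higher in both libraries numbered 1, against 19.7% of tested features. Prrx1 went the other way within KO, at 2384 and 3269 in number 1 and 3735 and 3344 in number 2. The share of tested features in that direction was not counted. The part that a shared culture, day or library preparation has in these gaps was not tested, since the labels do not say what a number stands for.

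Levels were put in order per kilobase of exon, on the scale of normalised reads per kilobase, because read counts rise with transcript length. In KO the order was Ly6a (576 ± 72.0), Thy1 (479 ± 84.4), Twist1 (451 ± 42.1), Prrx1 (288 ± 51.6), Crabp1 (222 ± 148), Cd34 (186 ± 31.9), Pdgfra (108 ± 20.6), Twist2 (23.6 ± 10.4) and Tbx3 (5.40 ± 1.73), each as mean ± SD over 4 libraries. The ranges of Ly6a, Thy1 and Twist1 overlapped from one neighbour to the next, as did those of Prrx1, Crabp1 and Cd34, and every other pair of neighbours stood apart. In WT the order began in the same way with Ly6a (461 ± 153), Thy1 (388 ± 91.0), Twist1 (378 ± 59.4) and Prrx1 (244 ± 43.9). Pdgfra (80.0 ± 35.4), Cd34 (72.9 ± 13.4) and Crabp1 (65.8 ± 27.3) followed with overlapping ranges, ahead of Twist2 (18.8 ± 1.97) and Tbx3 (1.62 ± 0.58). Cd34 and Crabp1 stood above Pdgfra in the KO order and below it in the WT order.

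The effect of oxygen was not used in choosing the genes and was tested with limma over all 12107 features. No change with hypoxia passed the test in any of the 9 genes. In KO the test called 0 of 9, against 0.0578% of tested features, and in WT 0 of 9, against 0.107%. With the genotypes averaged it called 0 of 9, against 0.363%. With shares this low, a count of 0 is no different from the background. At an unadjusted p under 0.05 limma gave 0 of 9 in each of these comparisons, against 3.2% of tested features in KO, 6.33% in WT and 5.29% with the genotypes averaged. Without KO normoxia replicate 2 the calls in KO over all features became 758, against 7 with it, and still 0 of the 9 genes were among them. Without WT hypoxia replicate 2 the calls in WT became 1, against 13 with it.

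Cd34 fell short of a call in either genotype. Its log2 change with hypoxia was -0.19 ± 0.24 in KO (SE, 95% confidence interval -0.72 to 0.35, limma adjusted p = 0.923) and 0.41 ± 0.24 in WT (-0.13 to 0.94, adjusted p = 0.814). Both WT hypoxia libraries (619 and 588) lay above both WT normoxia libraries (519 and 399), while the KO groups overlapped. Over both genotypes the change was 0.11 ± 0.17, with an interval of -0.27 to 0.49 that leaves out a doubling or a halving.

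Crabp1 had a log2 change of -0.66 ± 0.58 in KO (-1.95 to 0.63, limma adjusted p = 0.916) and of 0.83 ± 0.58 in WT (-0.46 to 2.11, adjusted p = 0.85). Its interval reached past a halving in KO and past a doubling in WT, so changes of that size are not excluded by these libraries. Tbx3 had 0.45 ± 0.52 in KO and 0.09 ± 0.52 in WT, and over both genotypes 0.27 ± 0.37 (-0.55 to 1.09). Pdgfra had the most negative change over both genotypes, -0.34 ± 0.30 (-1.01 to 0.33, limma adjusted p = 0.922).

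Twist1 had an average change of -0.01 ± 0.17 with an interval of -0.39 to 0.38, and Prrx1 of 0.09 ± 0.20 (-0.36 to 0.55). Thy1 (-0.03 ± 0.21, -0.51 to 0.44), Ly6a (-0.08 ± 0.24, -0.62 to 0.46) and Twist2 (-0.05 ± 0.32, -0.76 to 0.66) were likewise close to 0. The intervals of Cd34, Twist1, Thy1, Prrx1, Ly6a, Twist2 and Crabp1 over both genotypes lay inside a doubling and a halving. Those of Tbx3 and Pdgfra reached past one of these bounds. For Crabp1 the average combined -0.66 in KO with 0.83 in WT, and the interval within either genotype did reach past these bounds. So did those of Twist2, at -0.93 to 1.07 in KO and -1.17 to 0.83 in WT. The median change of the 9 genes was -0.01 and that of all tested features 0.00.

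**Figure D3:**
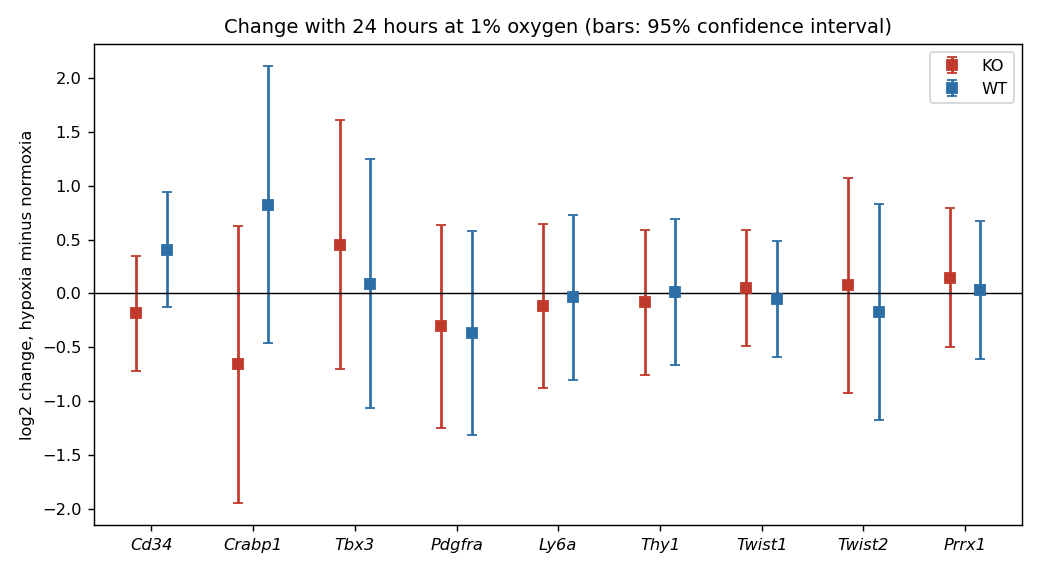
Log2 change, hypoxia minus normoxia, of each gene in KO (red, left) and WT (blue, right). Points are estimates from 2 libraries against 2 and bars are 95% confidence intervals from limma; every interval includes 0, from the narrow ones of Cd34 and Twist1 to those of Crabp1.

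The hypoxia responses of KO and WT were compared gene by gene. The test of the difference called 0 of 9 genes, and 0% of tested features, with 0 of 9 at an unadjusted p under 0.05, against 3.14% of tested features. The largest difference in size was that of Crabp1, -1.49 ± 0.82 log2 units, KO minus WT (95% confidence interval -3.31 to 0.34, limma adjusted p = 0.857). Cd34 followed with -0.59 ± 0.34 (-1.35 to 0.17, adjusted p = 0.857). The KO minus WT gaps of Cd34 and Crabp1 were smaller in hypoxia than in normoxia, but the test did not tell the oxygen levels apart. The differences of the other 7 genes ran from -0.10 for Thy1 to 0.36 for Tbx3.

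Genes whose levels were most like those of Cd34, Crabp1 and Tbx3 were ranked by Pearson r of log2 values over the 8 libraries, among 10966 features that averaged at least 20. The points share the split of KO from WT, and the ranking gives no test. Nearest to Cd34 were Lphn3 (r = 0.985), Stmn2 (0.968), Svip (0.968), Pdap1 (0.963) and 3830403N18Rik (0.947). Lphn3, an adhesion G protein-coupled receptor, averaged 120 in KO and 59.5 in WT, and Stmn2, a microtubule-binding stathmin of neurons, 136 in KO and 35.0 in WT. Nearest to Crabp1 were Gchfr (0.977), 5430435G22Rik (0.972), Mirg (0.958), Ybx1 (0.949) and Sf3a3 (0.939). Among those nearest to Tbx3 were Otub2 (0.972), Itgb3 (0.971), Zfp865 (0.961) and Ndst3 (0.954), with Itgb3, an integrin subunit, at 77 in KO and 46 in WT.

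The genes were then set beside lists from their own pathways. Of 16 tested genes that bind, make, break down or receive retinoic acid, besides Crabp1, 2 had all KO libraries above all WT libraries and 1 below. Over tested features the shares were 1.95% above and 1.7% below, here and for the lists that follow. The lists were chosen with earlier results known, so nothing is read from these counts. Cyp26b1, which breaks retinoic acid down, averaged 115 in KO and 55.8 in WT, and Rarg, a retinoic acid receptor, 627 in KO and 467 in WT. Rdh10, which makes retinaldehyde from retinol, averaged 49.3 in KO and 71.5 in WT. Some of these gaps were narrow. The highest KO value of Rdh10 was 59 and its lowest WT value 60. For Cyp26b1 the lowest KO value was 69 and the highest WT value 62, and for Rarg 557 and 526. The median difference of the list was 0.02 log2 units. Crabp2, the paralog of Crabp1, was low and overlapped, at 25.5 in KO and 18.5 in WT.

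Tbx15 (378 in KO and 318 in WT) and Mga (1283 in KO and 1116 in WT) were the tested T-box genes besides Tbx3, and both overlapped. Of 44 other tested lineage transcription factors, 1 had its KO libraries above WT (against 1.95% of tested features), Foxf2 (26.3 in KO and 12.3 in WT). The gap of Foxf2 was narrow, with a lowest KO value of 16 and a highest WT value of 14. The count below WT was 0, against 1.7%, and the median difference was 0.17. The 5 tested Hox genes, which record position along the body, all overlapped, Hoxa5 averaging 56.5 in KO and 60.5 in WT. Prrx2, the paralog of Prrx1, was at 329 in KO and 349 in WT.

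Neither Podxl nor Cd164, sialomucins like Cd34, separated the genotypes: Podxl averaged 66.3 in KO and 59.8 in WT, and Cd164 1682 in KO and 1584 in WT. Pdgfrb, the partner receptor of Pdgfra, was at 662 in KO and 667 in WT, and 0 of 5 tested PDGF ligands and receptors separated. Of 8 tested genes of the Ly6 and uPAR family 1 lay above WT (against 1.95% of tested features), Ly6e, at 747 in KO and 541 in WT.

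Of 26 tested general fibroblast markers, 0 lay above WT in all KO libraries, against 1.95% of tested features, and 2 lay below, against 1.7%. These 2 were Col3a1 (1676 in KO and 2952 in WT) and Dcn (18 in KO and 61.8 in WT). The highest KO value of Col3a1 was 1986 and its lowest WT value 2012. Its WT libraries numbered 1 read 2242 and 2012, and those numbered 2 read 4428 and 3127. The median difference of the list was -0.04. Of 11 tested upper dermal genes 1 lay above (against 1.95%), the Wnt target Axin2 (23.8 in KO and 12 in WT). The gap of Axin2 was narrow, with a lowest KO value of 17 and a highest WT value of 15. Of 15 tested lower dermal genes 1 lay above (against 1.95%), Dlk1 (69.5 in KO and 18.5 in WT). Below WT lay 2 (against 1.7%), Acta2 (33880 in KO and 51856 in WT) and Tgm2 (869 in KO and 1727 in WT). The list had a median of -0.43, which mixes numbered WT libraries that differed for some of its genes. Mgp read 782 to 2127 in KO, 505 and 531 in WT libraries numbered 1, and 3480 and 5112 in those numbered 2. Acta2 and Tgm2 overlapped between the WT numbers. The part of the number in this median was not tested. Of 16 tested dermal papilla and condensate genes, which Crabp1 also marks, 0 separated, with a median of 0.04. Limma called 0 genes of any of these lists with hypoxia in KO, in WT or over both. Among tested features the shares called were 0.0578%, 0.107% and 0.363%, so these counts are no different from the background.

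**Figure D4:**
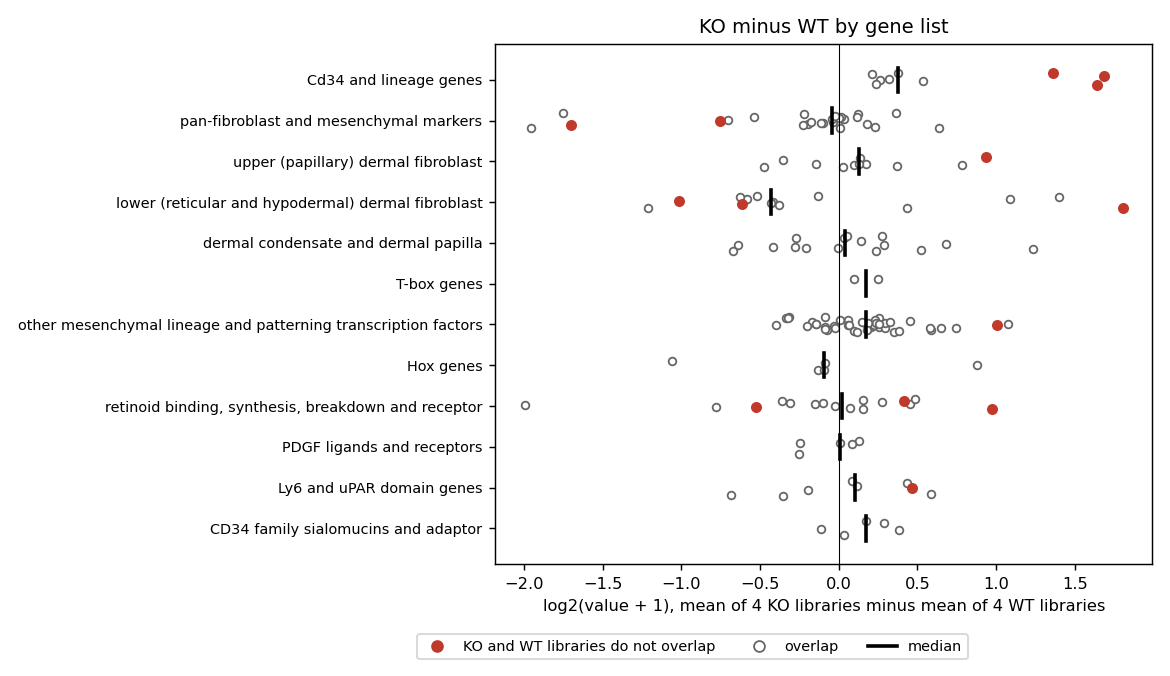
Difference in log2(value + 1), mean of 4 KO libraries minus mean of 4 WT libraries, for the 9 analysed genes (top row) and the tested genes of 11 related lists. Red points are genes whose KO and WT libraries do not overlap and black bars are medians; the 3 red points of the top row are Cd34, Tbx3 and Crabp1, between 1.36 and 1.68.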

How the data were processed

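The authors deposited a table of normalised read counts rounded to whole numbers, per the file's name and values, and these were handled as a score rather than as counts. The aligner, build, use of strand and method of normalization were not given in the sources used here. Per the labels' protocols, total RNA was extracted with a miRNeasy kit and libraries were made with a small RNA set for SOLiD. Depth was estimated from the spacing of low values, because rounding hides whole reads. Features reaching 10 in 2 or more libraries (12107, leaving 4984) were fitted as log2(value + 1) with limma (version 3.58.1, R 4.3.3), trend on, 4 groups, no replicate term, and p adjusted by Benjamini-Hochberg over all tested features (threshold 0.05). A permutation of 2 libraries against 2 cannot give p below 0.333, so p values rest on the spread pooled over groups, which may be technical. The fit and the depth estimate were tested on simulated data. The 10 genes and the 19 lists were chosen with earlier results of these data known. The genes named from lists are those with the highest mean level, or without overlap between KO and WT; Crabp2, Prrx2, Pecam1, Ptprc and Xist were added after their values were seen. Exon lengths and UTRs are from GENCODE M21, promoters and miRNA from RefSeq. The number of unused sample columns was 0. For Tbx3, 1 of the features ranked by likeness is not reported here.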

Additional observations from a re-analysis of the deposited data

How the results depend on the processing

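Of the 9 genes, 0 were called in any oxygen comparison under all alternatives run (a pseudocount of 10, no filter, a filter of at least 50, 2 other normalizations, length trend removed, the groups compared alone, WT hypoxia replicate 2 and KO normoxia replicate 1 left out together, and each library left out); a filter of at least 50 dropped Tbx3. The count whose KO and WT libraries did not overlap was 2 to 4, against 3. Hypoxia changes over both genotypes lay near 0 and some turned sign: Twist1 to 0.004 with median-of-ratios rescaling, Crabp1 to -0.048 with the length trend removed, and Twist2 to 0.338 and Prrx1 to -0.144 with those 2 libraries left out. With each library left out they ranged from -0.014 to 0.234 (Cd34), -0.343 to 0.511 (Crabp1), 0 to 0.543 (Tbx3), -0.678 to 0.001 (Pdgfra), -0.291 to 0.137 (Ly6a), -0.222 to 0.155 (Thy1), -0.114 to 0.105 (Twist1), -0.437 to 0.338 (Twist2) and -0.07 to 0.254 (Prrx1). The cause was not tested. With the replicate number as a block 0 of the 9 genes were called. Over all features calls with hypoxia were then 11 in KO and 19 in WT, against 7 and 13 without the block. The block was a single shift shared by KO and WT. It cannot remove a gap between numbers that differs between the genotypes, and such a gap stays in the spread behind the intervals. The labels do not say that a number marks a shared batch, so the numbers were not taken as pairs in the main tests. Same-numbered deviations correlated at 0.23 between KO groups and 0.57 between WT groups, and at -0.11 to 0.11 between a KO and a WT group. Low counts limit Tbx3 most.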
